A study of Bos grunniens and Bos grunniens x Bos taurus with 12 samples.

Results

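The core histone and linker histone genes annotated in the yak genome were described across 12 Ribo-seq libraries of testis. Members were the genes whose deposited description named a histone of class H1, H2A, H2B, H3 or H4 and no modifying or binding activity, which gave 55 of 20965 genes. Of these, 53 were described as histone proteins, and none of the 53 had a gene symbol. They comprised 3 H1, 12 H2A, 19 H2B, 14 H3 and 5 H4 genes. The other 2 had a symbol and were not histones: HINFP, the histone H4 transcription factor, and ALKBH1, described as a histone H2A dioxygenase, and both are given apart. A further 26 histone genes whose description is worded differently lay outside the rule. Several copies carried the same description, so identifiers are given for them.

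The libraries came from testes of yak (Bos grunniens) aged 6 months (Y6M), 18 months (Y18M) and 4 years (Y4Y) and of cattle–yak (Bos grunniens x Bos taurus, CY) aged 4 years, with 3 animals in each group and no treatment given in the labels. Per the study's methods the cattle–yak had a cattle sire and a yak dam, and males of this hybrid are sterile. The labels give castration as the way all testes were collected, whereas the methods give it for cattle–yak alone and euthanasia for the yak, so if the methods hold, species and collection cannot be told apart. Reads of the hybrid were aligned to the yak genome like all others, and the effect of its cattle alleles on the counts was not tested.

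Nucleosomes hold DNA on a core of H2A, H2B, H3 and H4, and linker H1 binds where DNA enters and leaves the core. Most histones are made from many near-identical gene copies during DNA replication, while variants such as H3.3 and H2A.Z are made at any time. Male germ cells in addition make their own forms, among them H2A type 1-A and H2B type 1-A in meiotic cells and H2A-Bbd and a linker histone in spermatids, before transition proteins and protamines replace most histones in the sperm nucleus.

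Ribosome footprints (RFs) were counted by the authors in the ORF of each gene, and FPKM, which divides counts by the length of the gene and the depth of the library, is called the translation level below. Libraries held 16304058 to 17862516 counts in Y4Y, 21309151 to 24542362 in Y18M, 25816963 to 37167651 in Y6M and 38437889 to 52616039 in CY. Library Y18M-2 stood apart from its group: its FPKM had a Spearman correlation across genes of 0.97 with each Y4Y library, against 0.87 and 0.90 with Y18M-1 and Y18M-3. Markers of Sertoli cells, which line the tubules, were counted in all libraries. Of 6 round spermatid markers in the tables, the summed translation level was 1201 to 1986 in Y4Y, 710.1 in Y18M-2, 4.24 to 9.31 in CY, and 1.19 to 7.07 in the other 5 libraries of young yaks. Of 3 markers of elongating spermatids (TNP1, ODF1 and GAPDHS), it was 8152 to 11202 in Y4Y and 1.13 to 26.4 in CY, with TNP1 and ODF1 at 0 in CY-3. In bulk tissue, fewer cells of a type and less RNA per cell cannot be told apart. Whether Y18M-2 came from a more mature animal or carries a wrong label was not tested, and the results on Y18M below are also given without it.

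The 53 histone genes differed widely in translation level (plot of translation levels by gene and library). Counts were found in all 12 libraries for 23 of them, 25 exceeded 1000 counts in some library, and 11 had at most 10 counts in every library, 4 of which had none. Those 11 were 5 H3, 3 H2B, 2 H2A and 1 H4 genes. Both leading H3 genes were described as H3.3, the form placed in chromatin outside replication. ENSBGRG00000004866 had 1070.0, 1683 and 1508 FPKM in Y6M, 1543, 1255 and 1839 in Y18M, 1530.3, 1503 and 1299 in Y4Y, and 2840, 2004 and 2249 in CY. ENSBGRG00000021844 ranged from 451 FPKM in Y6M-1 to 1335 in Y4Y-1. The third H3 gene by level, the H3-like ENSBGRG00000016242, ranged from 72.2 to 312 FPKM, both within Y6M. Of the 14 H3 members, an H3.3 gene thus had the highest level in every library. H3-4, a histone gene outside the rule, had 1356 FPKM in Y4Y-3, above both H3.3 genes in that library. The 5 genes of centromeric H3 (CENP-A), which marks centromeres, summed to 1.66 to 12 FPKM.

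**Figure D1:**
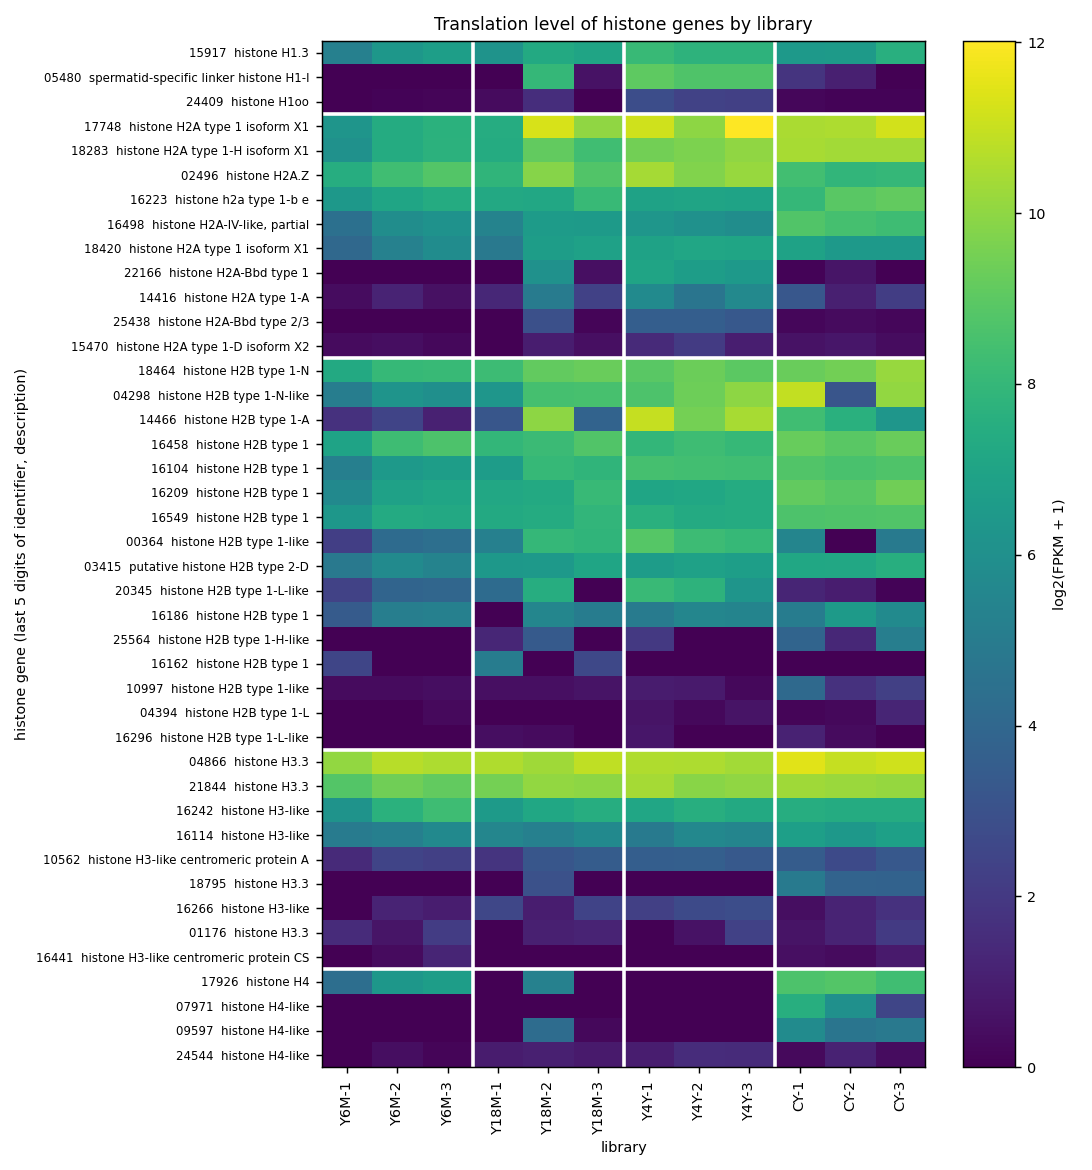
Translation level, as log2(FPKM + 1), of each histone gene with more than 10 counts in some library (rows, grouped from H1 at the top to H4 at the bottom) in each of the 12 libraries (columns, white lines separate groups). Both leading H3.3 genes (ENSBGRG00000004866 and ENSBGRG00000021844) are bright in all 12 libraries, whereas H4 ENSBGRG00000017926 is dark in all Y4Y libraries and bright in all CY libraries.

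The leading H2A gene, H2A type 1 ENSBGRG00000017748, was low in all Y6M libraries. It had 75.8, 165 and 204 FPKM in Y6M, 172, 2511 and 1038 in Y18M, 2237, 1018 and 4149 in Y4Y, and 1436.5, 1475 and 2382 in CY. H2A type 1-H ENSBGRG00000018283 ranged from 66.2 to 212 FPKM in Y6M, from 699 to 1027 in Y4Y and from 1290.1 to 1395 in CY. Its 4-year groups were both above all Y6M libraries and did not overlap each other. The leading H2B gene over all libraries, H2B type 1-N ENSBGRG00000018464, ranged from 156 to 272 FPKM in Y6M, from 492 to 639 in Y4Y and from 615 to 1136 in CY. The linker histone H1.3, ENSBGRG00000015917, ranged from 37.0 to 106 FPKM in Y6M, from 71.0 to 156 in Y18M (71.0 and 129 without Y18M-2), from 217 to 272 in Y4Y and from 88.4 to 189 in CY.

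The comparison of Y4Y with CY asks which histone genes differ in translation between fertile yak and sterile hybrid. Among the 53 members, most germ-cell forms were far lower in CY, H2A.Z was lower, and a group of H2A, H2B, H3 and H4 copies was higher. Counts were tested by the quasi-likelihood test of edgeR, p-values were adjusted after Benjamini-Hochberg over all 16498 genes tested, and genes were called at an adjusted p below 0.05 with a log2 fold change of at least 1. Of the 53 histone genes, 37 passed the filter on low counts. In CY, 12 were called higher and 10 lower, while of all genes tested 17.1% were called higher and 27.0% lower, together 44.0%. The median log2 fold change was 0.28 over the 37 and −0.00 over all genes tested. By class, calls higher and lower were 0 and 2 of 3 H1, 2 and 4 of 12 H2A, 5 and 3 of 19 H2B, 2 and 1 of 14 H3, and 3 and 0 of 5 H4.

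Both germ-line linker histones fell in CY. The spermatid-specific linker histone H1-like gene ENSBGRG00000005480 had 525, 412 and 411 FPKM in Y4Y and 2.48, 1.11 and 0 in CY. Every Y4Y library was thus above every CY library, with a log2 fold change of −8.43 ± 0.72 (SE, n = 3 per group; edgeR adjusted p = 2.23e-05). Its young libraries were at 0 in Y6M and at 0, 255 and 0.50 in Y18M, so that it appeared in Y18M-2 and nearly nowhere else before 4 years. H1oo, ENSBGRG00000024409, named for its form in oocytes, had 6.12, 4.11 and 3.90 FPKM in Y4Y and 0.14, 0.10 and 0.10 in CY. Its log2 fold change was −5.31 ± 0.39, at 5 to 10 counts per CY library. It passed the filter on low counts through Y4Y alone, so no p-value is given for it. H1.3 was not called: its log2 fold change was −0.93 ± 0.28, short of 1, at an edgeR adjusted p of 0.0175.

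The short H2A variants of spermatids, H2A-Bbd, showed the most negative fold change of the class. H2A-Bbd type 1, ENSBGRG00000022166, had 129, 103 and 88.3 FPKM in Y4Y and 0.10, 0.62 and 0 in CY. Its log2 fold change of −8.80 ± 0.57, at 0 to 9 counts per CY library, was the lowest of the histone genes tested. H2A-Bbd type 2/3, ENSBGRG00000025438, had 11.11, 11.07 and 8.88 FPKM in Y4Y and 0.16, 0.29 and 0.14 in CY. Its log2 fold change was −5.64 ± 0.44, at 2 to 4 counts per CY library. Both H2A-Bbd genes passed the filter on low counts through Y4Y alone, so their calls add no support and no p-value is given. For both genes, as for the spermatid linker histone, the levels in CY were near the 0 of all Y6M libraries.

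The testis forms made earlier, in meiosis, fell less far. H2B type 1-A, ENSBGRG00000014466, had 1992, 728 and 1414 FPKM in Y4Y and 317, 199 and 79.2 in CY. The groups did not overlap, and the log2 fold change was −2.78 ± 0.55 (edgeR adjusted p = 0.00223), but the adjusted p was 0.12 when all 12 libraries shared 1 fit. In Y6M it had 2.33, 4.50 and 1.18 FPKM, below every CY library. H2A type 1-A, ENSBGRG00000014416, had 52.4, 24.4 and 49.5 FPKM in Y4Y and 8.51, 1.10 and 3.54 in CY (log2 fold change −3.22 ± 0.65, edgeR adjusted p = 0.00262). In contrast to H2B type 1-A, its CY libraries overlapped those of Y6M, at 0.33, 1.3 and 0.46 FPKM. The difference between these fold changes of H2A-Bbd and of the type 1-A forms was not tested. Beside them, spermatocyte markers (7 of 8 listed were in the tables, none at 0 in either group) summed to 480 to 487 FPKM in Y4Y and 311 to 488 in CY. Single markers of this list differed: SYCP2 had 26.5 to 34.4 FPKM in Y4Y and 7.04 to 20.6 in CY and MEIOB 31.9 to 40.1 and 9.90 to 27.2, without overlap, whereas SYCP3 had 59.7 to 78.4 and 77.9 to 148. HORMAD1, which held the largest part of the sum in each CY library, had 189 to 244 FPKM in Y4Y, 166 to 181 in CY and already 123 to 183 in Y6M. Round spermatid markers had the levels given above, with SPACA4 and SUN5 at 0 in CY-3, and the part of the cell types in these results was not tested.

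**Figure D2:**
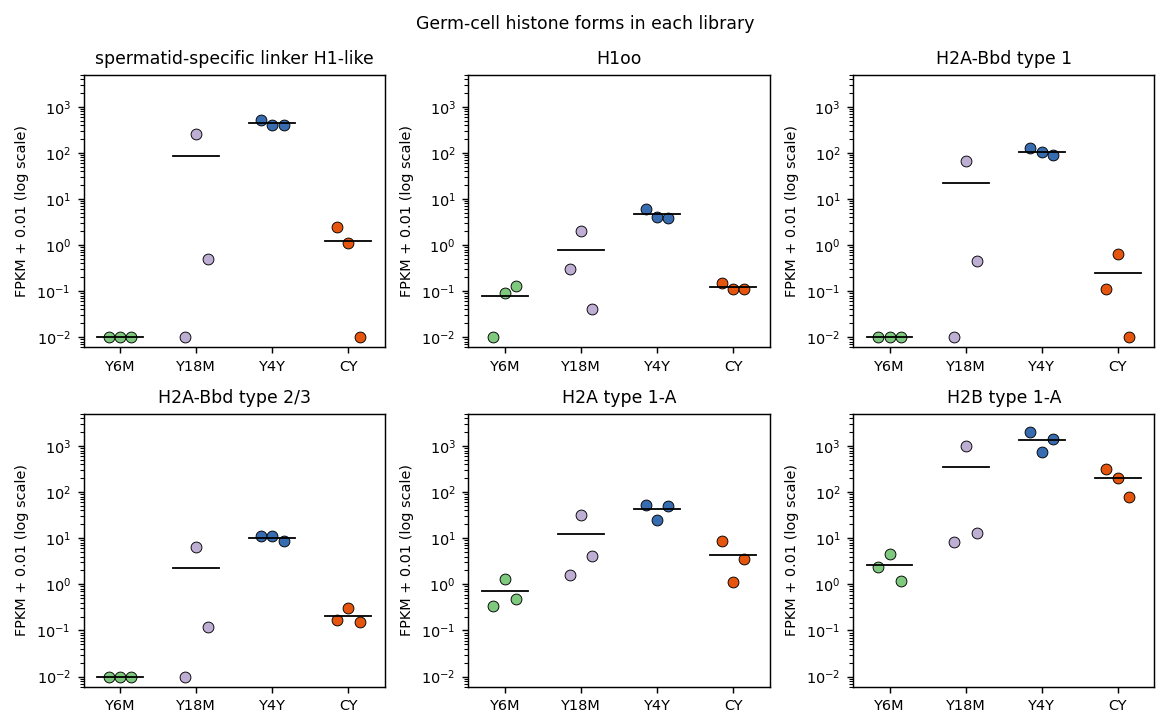
Translation level of 6 germ-cell histone forms in each library (points, FPKM + 0.01 on a log scale), with the group mean as a line and 0 FPKM at the bottom at 0.01. In CY the spermatid linker histone has at most 2.48 FPKM, against 411 to 525 in Y4Y, and both H2A-Bbd genes have at most 0.62 FPKM, whereas H2B type 1-A has 79.2 to 317 FPKM, and Y18M-2 is the high point of Y18M in all 6 panels.

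Among the other genes called lower, H2A.Z ENSBGRG00000002496, a variant found at promoters, had 1329, 857 and 1145 FPKM in Y4Y and 335, 242 and 254 in CY (log2 fold change −1.99 ± 0.21, edgeR adjusted p = 7.79e-05). The Y6M libraries, with 181, 317 and 451 FPKM, overlapped those of CY. The low-count H2A.Z-like ENSBGRG00000026453 never exceeded 8 counts. Among H2B copies, H2B type 1-L-like ENSBGRG00000020345 fell from 283, 216 and 74.9 FPKM in Y4Y to 1.36, 0.96 and 0.08 in CY (log2 fold change −7.82 ± 0.76, edgeR adjusted p = 4.32e-05). This copy had 4.12, 13.6 and 14.6 FPKM in Y6M, above all CY libraries. H2B type 1-like ENSBGRG00000000364 had 461, 297 and 264 FPKM in Y4Y and 43.3, 0 and 30.4 in CY (log2 fold change −3.77 ± 1.11, edgeR adjusted p = 0.0159). The H3-like ENSBGRG00000016266 was called lower at a low level, 3.88 to 6.05 FPKM in Y4Y and 0.38 to 2.32 in CY.

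Of the 12 genes called higher in CY, 4 had no count in any Y4Y library, and 3 of these are H4 genes. Histone H4 ENSBGRG00000017926 had 0 FPKM in all Y4Y libraries and 408, 451 and 324 FPKM in CY, where 7261, 5886 and 4205 counts were found. It was at least 775-fold higher in CY when 3 counts are taken for each Y4Y library, a floor that covers counting error only. H4-like ENSBGRG00000007971 (184, 63.5 and 4.72 FPKM in CY) was at least 170-fold higher (at least 67.1-fold without CY-1), and H4-like ENSBGRG00000009597 (54.3, 24.8 and 28.5 FPKM) at least 71.5-fold higher by the same floor. The fourth, H3.3 ENSBGRG00000018795, had 29.9, 13.2 and 12.6 FPKM in CY, at least 47.9-fold above the floor. These 4 genes passed the filter on low counts through their CY libraries alone. Their calls thus add no support to the counts, and no p-value is given for them. Beside the genes called higher in CY, the summed translation level of markers of other testis cells also lay higher in each CY library than in any Y4Y library for the first 4 lists given here. For 6 of 7 listed spermatogonia markers in the tables it was 604 to 890.1 FPKM in Y4Y and 1267 to 1413 in CY, for 5 of 8 of Sertoli cells 594 to 820 and 1120.1 to 1366, for 5 of 5 of peritubular myoid cells 211 to 219 and 780.3 to 1291, and for 2 of 6 of Leydig cells 58.8 to 188 and 580.2 to 1041. Single spermatogonia markers differed: KIT had 39.4 to 47.3 FPKM in Y4Y and 43.5 to 56.5 in CY, with overlap. GFRA1 had 1.33 to 3.24 and 2.46 to 5.02, also with overlap. UCHL1, which held the largest part of the sum in each of these libraries, DMRT1, ZBTB16 and NANOS3 were higher in CY without overlap. No marker of these 4 lists was at 0 in either group, and the part of these markers in the higher histone genes was not tested. Markers of dividing cells, 4 of 6, summed to 150.3 to 175 FPKM in Y4Y and 95.6 to 151 in CY, with overlap. Endothelial markers, 5 of 5, summed to 12.7 to 15.3 FPKM in Y4Y and at most 14.1 in CY, also with overlap. Macrophage markers, 5 of 5, summed to 87.9 to 172.8 FPKM in Y4Y and 91.1 to 125 in CY, again with overlap. The higher sums in CY thus did not extend to all lists of other testis cells.

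H4 counts were also found in part of the young yaks. H4 ENSBGRG00000017926 had 19.3, 82.0 and 101 FPKM in Y6M, 0, 37.5 and 0 in Y18M and 0 in all of Y4Y, so 5 of the 9 yak libraries were at 0. Over the whole H4 class, counts summed to 169 to 1053 per Y6M library, 11 to 16 per Y4Y library and 4649 to 11549 per CY library. Set against the 19 H2B genes, this was 27.6 to 63.6 H4 counts per 1000 H2B counts in Y6M, 0.313 to 0.577 in Y4Y and 59.9 to 143 in CY, although both proteins enter each nucleosome core in equal number. No H4 gene was among the 26 histone genes outside the rule. In the whole table, where 53 of 20965 genes are histone members, 11 genes had 0 counts in each Y4Y library and at least 200 in each CY library. Of the 11, 3 were histone genes (H4 ENSBGRG00000017926, H4-like ENSBGRG00000009597 and H3.3 ENSBGRG00000018795). The line of 200 counts was not fixed in the design, and the H3.3 gene had 213 in its lowest CY library. These 3 genes are those given above as at 0 in Y4Y, so the count is a description and no test. In the reverse direction there were 7 genes, of which 0 were histone genes. H4 copies are near identical in coding sequence, and how reads that match several copies were shared or lost in counting was not tested.

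The other 8 genes called higher belonged to H2A, H2B and H3. H2A-IV-like ENSBGRG00000016498 rose from 77.7, 67.7 and 58.4 FPKM in Y4Y to 425, 353 and 312 in CY (log2 fold change 2.43 ± 0.18, edgeR adjusted p = 1.12e-05). H2A type 1-b e ENSBGRG00000016223 had 120.2 to 129.7 FPKM in Y4Y and 254 to 568 in CY (1.81 ± 0.26 on the log2 scale). Of the H2B type 1 copies, ENSBGRG00000016209 rose from 134, 144 and 165 FPKM to 569, 469 and 686 (1.97 ± 0.16 on the log2 scale, edgeR adjusted p = 1.68e-05). ENSBGRG00000016549 (1.26 ± 0.12) and ENSBGRG00000016458 (1.06 ± 0.14) were called with smaller changes on the log2 scale. The H3-like ENSBGRG00000016114 had 29.1, 47.2 and 43.1 FPKM in Y4Y and 109, 83.3 and 112 in CY (1.36 ± 0.20 on the log2 scale). Each of these 6 copies was counted in every library of both groups.

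The highest fitted changes among genes with counts in Y4Y were those of H2B copies at low levels. H2B type 1-like ENSBGRG00000010997 had 0.87, 0.80 and 0.18 FPKM in Y4Y and 16.2, 2.23 and 3.84 in CY (log2 fold change 3.60 ± 0.93). H2B type 1-H-like ENSBGRG00000025564 had 2.99, 0 and 0 FPKM in Y4Y and 13.8, 1.54 and 34.5 in CY, so the groups overlapped, and it was called in only 11 of 16 settings (log2 fold change 3.99 ± 1.38, edgeR adjusted p = 0.032). Its edgeR adjusted p was 0.104 without CY-3, 0.0843 and 0.0838 without Y4Y-2 and Y4Y-3, and 0.116 with all 12 libraries in 1 fit, and that of DESeq2 was 0.156. Of the 22 called genes, 17 were called in all 16 settings, the reported one included. Among these 17 are the genes without a count in any Y4Y library, both H2A-Bbd genes, H1oo and H2B type 1-like ENSBGRG00000010997. They passed the filter on low counts through 1 group alone, so their calls in all settings add no support. Beside H2B type 1-H-like and H2B type 1-A, 3 called genes lost the call in some setting. H2B type 1-like ENSBGRG00000000364 had an edgeR adjusted p of 0.0529 without Y4Y-1, and one of 0.0829 by DESeq2 and 0.0555 by limma on log2(FPKM + 0.1). H3-like ENSBGRG00000016266 had an edgeR adjusted p of 0.0581 and 0.0634 without Y4Y-2 and Y4Y-3 and of 0.124 with all 12 libraries in 1 fit. H2B type 1 ENSBGRG00000016458 had a log2 fold change of 0.997 without CY-1, just short of 1.

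**Figure D3:**
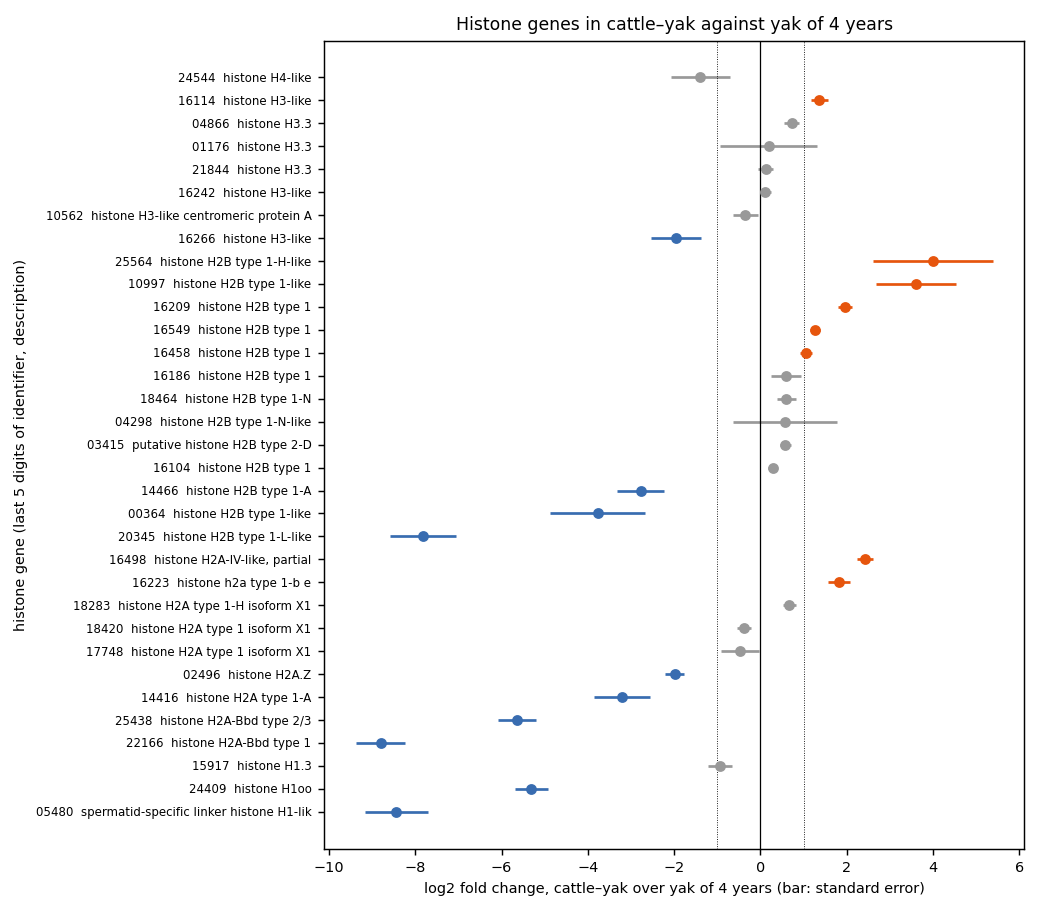
Log2 fold change of the tested histone genes in CY over Y4Y (points; bars are standard errors; dotted lines mark −1 and 1), with genes called higher in orange, genes called lower in blue and genes not called in grey. The 4 genes without a count in any Y4Y library are left out, and the spermatid linker histone, H2A-Bbd and H2B type 1-L-like lie farthest left, at −8.43, −8.80 and −7.82.

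The most translated genes were mostly not called. H3.3 ENSBGRG00000021844 had a log2 fold change of 0.12 ± 0.17 between Y4Y and CY. For H3.3 ENSBGRG00000004866 it was 0.72 ± 0.17 and for H2A type 1-H 0.67 ± 0.15, short of 1 although the edgeR adjusted p was 0.0057 and 0.00517. H2A type 1 ENSBGRG00000017748 had −0.48 ± 0.44 and H2B type 1-N 0.59 ± 0.22. H2B type 1-N-like ENSBGRG00000004298 could not be placed, at 0.57 ± 1.20, since its CY libraries had 1940.2, 8.12 and 1062 FPKM.

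Because near-identical copies can share reads, counts were also summed over each class, as CPM after TMM scaling, and the log2 ratio of group means was taken, with no test. Between Y4Y and CY the ratio was −2.23 for H1, with 380.4 ± 63.1 (SD, n = 3) in Y4Y and 81.4 ± 34.6 in CY, and 7.81 for H4, with 0.786 ± 0.136 and 176 ± 54.1. It was 0.49 for H3 (1215 ± 138 and 1707 ± 268), and none of these 3 classes overlapped between the groups. The ratios of H2A (−0.12) and H2B (0.03) were within the spread of libraries, with overlapping groups, and turned to 0.16 for H2A without Y4Y-3 and to −0.06, −0.11 and −0.04 for H2B without Y4Y-2, CY-1 and CY-3. Within the near-equal H2B sums the copies differed. H2B type 1-A had 6894, 3169 and 1257 counts in CY and its share of H2B counts was lower in each of them than in any Y4Y library (plot of copy shares). Summed over all 53 genes, histone counts made up 4546 to 6292 CPM of a Y4Y library and 4916 to 6218 CPM of a CY library, so that the groups overlapped.

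**Figure D4:**
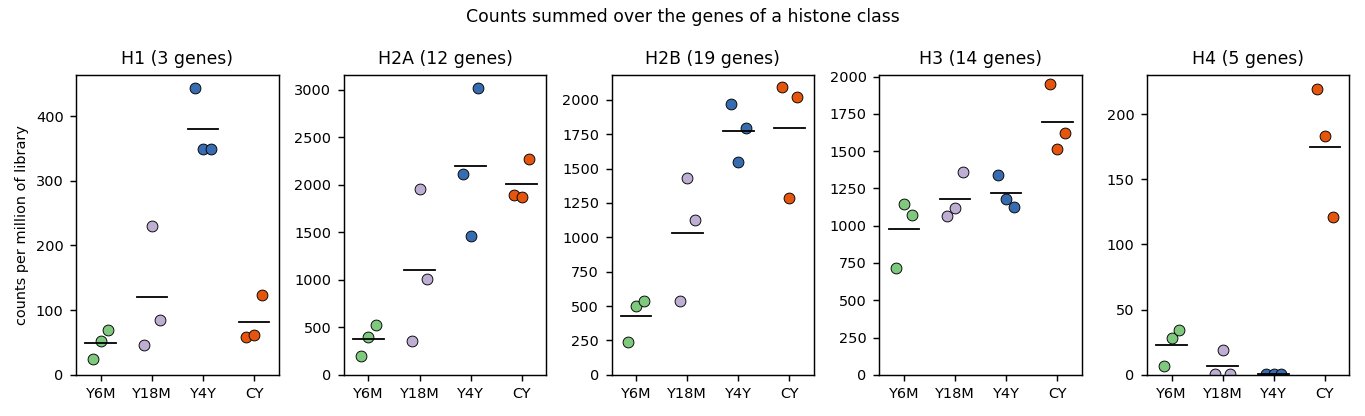
Counts summed over the genes of each histone class, as CPM of the library total, in each library (points) with the group mean as a line. In CY, H1 lies between 59.1 and 124 against 349 to 444 in Y4Y and H4 between 121 and 219 against at most 0.896, while H2A and H2B overlap between both groups.

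The comparisons by age ask when histone forms appear during testis development. From Y6M to Y18M, edgeR called 0 of 29 tested histone genes in either direction, against 0.0672% of all 14874 genes tested (0.0202% higher and 0.0471% lower). The unadjusted p was below 0.05 for 9 histone genes, and DESeq2 called 5 higher, as edgeR did without Y18M-1. From Y18M to Y4Y, edgeR called 0 of 32, against 0.0371% of 16175 genes, with an unadjusted p below 0.05 for 3 and 1 called higher by DESeq2. Y18M-2 differed from both other Y18M libraries in the germ-cell forms. H2B type 1-A had 8.36, 1017 and 13.2 FPKM in Y18M, H2A type 1-A 1.55, 31.2 and 4.04, and H2A-Bbd type 1 0, 66.7 and 0.43, each with Y18M-2 at the level of Y4Y or close to it.

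Without Y18M-2, 11 histone genes were higher in Y4Y than in Y18M and 1 was lower, while 26.1% of all genes tested were called higher and 18.5% lower. With 2 libraries on the Y18M side, the genes called higher included H2B type 1-A (log2 fold change 6.80 ± 0.57, edgeR adjusted p = 9.79e-05), H2A type 1-A (3.72 ± 0.53), H2A.Z (1.56 ± 0.30), H1.3 (1.05 ± 0.24) and H2A type 1-H (1.58 ± 0.29). Also called were both H2A-Bbd genes, both germ-line linker histones, H2B type 1-L-like ENSBGRG00000020345 and, at 19 counts or fewer, H2A type 1-D ENSBGRG00000015470. The gene called lower, H2B type 1 ENSBGRG00000016162, had 309 counts in Y18M-1 and 50 in Y18M-3, and 0 in all Y4Y libraries. From Y6M to Y18M without Y18M-2, 0 histone genes were higher and 1 was lower, H4 ENSBGRG00000017926, at 0 in both remaining libraries, against 0.226% higher and 0.279% lower of all genes tested. Both genes called lower here had 0 counts in 1 group and passed the filter through the other group alone, so their calls add no support. The spermatid linker histone and both H2A-Bbd genes, with 0 counts in Y18M-1 and at most 6 in Y18M-3, also passed through 1 group alone.

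Since Y18M was divided in this way, Y6M was also set against each 4-year group, both comparisons and the genes named in them being chosen after their values were seen. From Y6M to Y4Y, 17 of the 53 histone genes were called higher and 1 lower (31 tested), against 31.0% higher and 24.7% lower of all genes tested, together 55.7%. From Y6M to CY, 17 were called higher and 1 lower (32 tested), against 18.1% and 19.7%, together 37.8%. Among the genes called higher in Y4Y, the spermatid linker histone and both H2A-Bbd genes had 0 counts in all Y6M libraries. Among those higher in CY, this held for H4-like ENSBGRG00000007971 and ENSBGRG00000009597, H3.3 ENSBGRG00000018795 and H2B type 1-H-like ENSBGRG00000025564. The gene called lower in Y4Y, H4 ENSBGRG00000017926, had 0 counts in all Y4Y libraries. These genes passed the filter through 1 group alone, so their calls add no support to the counts. Both comparisons share the Y6M libraries, and their values are given side by side. By class, genes higher from Y6M were 3 H1, 7 H2A, 5 H2B, 2 H3 and 0 H4 in Y4Y, and 0 H1, 4 H2A, 9 H2B, 1 H3 and 3 H4 in CY. Scaling matters here: by library size alone, the median log2 fold change of all genes moved from 0.08 to 0.64 in Y6M to Y4Y and from −0.02 to 0.52 in Y6M to CY, and in Y4Y to CY from −0.00 to −0.01. The fold changes given are those after TMM scaling.

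Several genes were above Y6M in both 4-year groups. H2A type 1 ENSBGRG00000017748 had a log2 fold change over Y6M of 3.51 ± 0.52 in Y4Y and 3.06 ± 0.35 in CY. H2A type 1-H had 1.96 ± 0.34 and 2.65 ± 0.34, and H2B type 1 ENSBGRG00000016104 had 1.62 ± 0.30 and 1.92 ± 0.30. H2B type 1-A was 8.42 ± 0.59 above Y6M in Y4Y and 5.65 ± 0.63 in CY on the log2 scale, so it was called in both. H2B type 1-N-like ENSBGRG00000004298 was also called in both, at 3.06 ± 0.36 and 3.64 ± 1.32, but in CY it lost the call in 8 alternative settings, among them those without CY-1, CY-3 or any of the Y6M libraries (edgeR adjusted p from 0.075 to 0.126).

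Other genes were called over Y6M in Y4Y and not in CY. H2A.Z was 1.27 ± 0.29 above Y6M in Y4Y and −0.70 ± 0.27 in CY on the log2 scale (edgeR adjusted p = 0.00369 and 0.0521). H1.3 was 1.12 ± 0.30 above it in Y4Y and 0.22 ± 0.38 in CY, and the former was 0.98 without Y4Y-1 and 0.84 without Y6M-1, short of 1. H2A type 1-A was 5.28 ± 0.52 and 2.10 ± 0.83 above it (edgeR adjusted p = 0.0573 in CY). The spermatid linker histone, at 0 in all Y6M libraries, was at least 1499-fold higher in Y4Y by the floor of 3 counts, H2A-Bbd type 1 at least 274-fold and H2A-Bbd type 2/3 at least 25.2-fold. These 3 were not tested from Y6M to CY, where they had too few counts. For H2A.Z, H1.3, H2A type 1-A and the last 3, the direct comparison of Y4Y and CY stands above.

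Genes called over Y6M in CY and not in Y4Y included H2A-IV-like ENSBGRG00000016498 (2.38 ± 0.35 in CY and −0.07 ± 0.34 in Y4Y on the log2 scale). H2B type 1 ENSBGRG00000016209 had 2.01 ± 0.30 and 0.02 ± 0.27 in the same order, and H2A type 1-b e 1.24 ± 0.31 and −0.60 ± 0.20. H4 ENSBGRG00000017926 was 2.05 ± 0.46 above Y6M in CY and at least 189-fold below it in Y4Y by the floor of 3 counts. It was the gene called lower in Y4Y, whereas in CY this was H2B type 1-L-like ENSBGRG00000020345 (−4.21 ± 0.79, edgeR adjusted p = 0.00233). With all 12 libraries in 1 fit, the edgeR adjusted p of these genes from Y6M to CY was 0.308 and 0.0634.

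The class sums by age moved unequally. From Y6M to Y4Y the log2 ratio was 2.43 for H1, 2.02 for H2A, 1.52 for H2B and −5.38 for H4, without overlap of the groups. From Y6M to CY it was 1.93 for H2A, 1.57 for H2B and 2.44 for H4, again without overlap, and 0.23 for H1, with overlap and a turn to −0.06 without Y6M-1 and −0.19 without CY-3. For H3 it was −0.24 in Y4Y, which became 0.31 by library size alone, and 0.27 in CY, with overlap in both. H3 counts per 1000 H2B counts were 1989.6 to 3021 in Y6M, 628 to 762 in Y4Y and 802 to 1181 in CY, a ratio within each library that no scaling alters. These sums and ratios cover the members alone and leave out the histone genes outside the rule. Among the latter, H3-4 had 16.2 to 40.3 FPKM in Y6M, 975 to 1386 in Y4Y and 1016 to 1295 in CY. H2BC12 had 112 to 259, 1048 to 1426 and 1194 to 1675 FPKM in the same order. The part of such genes in the H3 ratio was not tested. All 53 genes together made up 1181 to 2236 CPM in Y6M and 2009 to 4748 CPM in Y18M, where Y18M-1 and Y18M-3 had 2009 and 3578 CPM.

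Copies of 1 class often swung between animals of a group by more than the class did. Among members with at least 100 counts in a library of the group, the highest FPKM was over 4 times the lowest, or the lowest was 0, for 3 of 22 in Y6M, 14 of 29 in Y18M (8 of 24 without Y18M-2), 1 of 26 in Y4Y and 7 of 29 in CY. In CY, H2B type 1-N-like ENSBGRG00000004298 had 36955, 114 and 14780 counts and H2B type 1-like ENSBGRG00000000364 had 926, 0 and 476, so CY-2 was low for both. H4-like ENSBGRG00000007971 had 3308, 836 and 62 counts. H2B type 1 ENSBGRG00000016186 had 0 FPKM in Y18M-1 and 45.4 and 31.6 in the other Y18M libraries. Whether such swings come from the animals or from the sharing of reads between copies was not tested, and values of single H2B and H4 copies are uncertain to that extent.

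**Figure D5:**
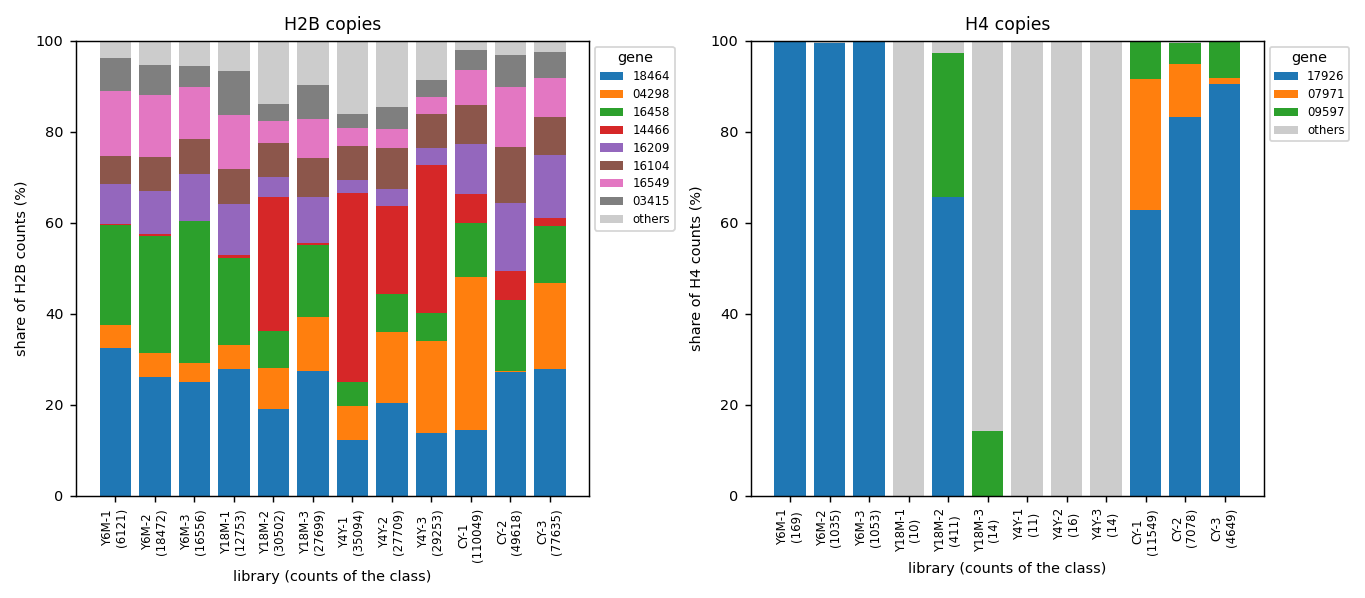
Share of the H2B counts (left) and H4 counts (right) of each library that fell on each copy (colours, last 5 digits of the identifier; grey for other copies), with the counts of the class below each library. H2B type 1-A (ENSBGRG00000014466, red) takes larger shares in Y4Y and Y18M-2 than in the other libraries, H2B type 1-N-like ENSBGRG00000004298 (orange) is nearly missing in CY-2, and the H4 bars of Y4Y rest on only 11 to 16 counts.

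The 2 members that are not histones were both higher in CY than in Y4Y. HINFP, which activates transcription of H4 genes, had 17.4, 17.6 and 13.6 FPKM in Y4Y and 36.3, 35.6 and 35.5 in CY, and was called higher (log2 fold change 1.15 ± 0.14, edgeR adjusted p = 0.000175). From Y6M to CY it was called at 1.38 ± 0.22, whereas from Y6M to Y4Y it was not, at 0.21 ± 0.25. ALKBH1 had 16.4, 13.3 and 14.5 FPKM in Y4Y and 28.9, 26.8 and 25.5 in CY, without overlap, but its log2 fold change of 0.98 ± 0.16 was short of 1. From Y6M to CY it was called, at 1.26 ± 0.15.

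Genes that act on histones were read from lists. Of 15 genes of histone-to-protamine replacement, 10 were called lower in CY than in Y4Y and 2 higher, against 27.0% lower and 17.1% higher of all genes tested, with a median log2 fold change of −2.90 against −0.00 over all genes tested. Those lower were TNP1 (transition protein 1, 8989 ± 1737 FPKM in Y4Y and 8.81 ± 12.8 in CY), the genes described as nuclear transition protein 2, protamine-2 and spermatid nuclear transition protein 3 (2 genes), BRDT, which reads acetylated histones (−3.10 ± 0.32), the remodeller CHD5 (−6.98 ± 0.25), PHF7 (−5.27 ± 0.33), the proteasome activator PSME4 (−1.41 ± 0.12) and DPEP3 (−1.40 ± 0.30). Those higher were PYGO2 (1.03 ± 0.21) and L3MBTL3 (1.25 ± 0.16). The changes in brackets are log2 fold changes. From Y6M to Y4Y, 11 of the 15 were higher and 2 lower (31.0% and 24.7% of all genes tested), and from Y6M to CY 7 were higher and 0 lower, with 11 tested (18.1% and 19.7% of all genes tested).

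The genes that make or carry histones gave few calls between Y4Y and CY, where 17.1% of all genes tested were called higher and 27.0% lower. Of 13 genes of histone mRNA transcription and processing, 1 was called higher, HINFP, and 1 lower, SYMPK (log2 fold change −1.21 ± 0.13). SLBP, which binds the stem loop of histone mRNA, had the highest level among them (123 ± 8.0 FPKM in Y4Y and 175 ± 19.6 in CY) and was not called. Of 18 histone chaperones and import factors, 4 were higher (ATRX, NPM3, RBBP7 and MMS22L, from 1.02 to 1.60 on the log2 scale) and 3 lower. Those lower were CHAF1B (−2.14 ± 0.23), a subunit of the complex that places H3 and H4 behind the replication fork, the H3.3 chaperone subunit UBN1 (−1.46 ± 0.13) and the importin IPO4 (−1.90 ± 0.12). NASP, an H1 and H3–H4 chaperone, had 496 ± 68.0 FPKM in Y4Y and 416 ± 18.6 in CY and was not called. Of 16 genes of S phase, 2 were higher, POLA1 (1.25 ± 0.14) and CDC6 (1.17 ± 0.21), and 0 lower by edgeR, with a median log2 fold change of 0.63. The shares called were near those of all genes tested or below them for these 3 lists, so the calls name single genes and are no result about a list.

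The 26 histone genes outside the rule had symbols for the most part, and 25 were tested. In CY, 6 were called higher and 0 lower than in Y4Y, against 17.1% and 27.0% of all genes tested, with a median log2 fold change of 0.28. The 6 were MACROH2A1, a variant with a large extra domain (1.85 ± 0.16), the linker histone H1-4 (263 ± 14.6 FPKM in Y4Y and 662 ± 16.6 in CY, 1.34 ± 0.11), H2AC6 (687 ± 78.4 and 1688 ± 131, 1.31 ± 0.13), H2AC11 (1.19 ± 0.39), H2BC3 (1.11 ± 0.19) and H2AC21 (1.05 ± 0.15). H2AZ2, the second H2A.Z gene, had 844 ± 136 FPKM in Y4Y and 536 ± 60.8 in CY and was not called, at −0.75 ± 0.16. H3-4 (1239 ± 229 FPKM in Y4Y and 1174 ± 144 in CY) and H2BC12 (1206 ± 197 and 1401 ± 247) were near the level of the leading members and were not called. The list of 6 variants named outside the rule, all of them among the 26, gave 1 call, MACROH2A1.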

How the data were processed

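Ribosome footprints of 12 testis libraries (4 groups of 3 animals, 1 library each) were analysed from the tables that the authors deposited. The authors' pipeline used fastp for trimming, Bowtie2 and BLAST against rRNA and other small RNA, STAR with the yak genome as reference, and RSEM for counting in ORFs. The authors' expected counts were deposited as whole numbers without normalization, and their FPKM divides these by length and depth. Tables of group means, and the authors' own fold changes, p-values and FDR, were not used. Members, lists and tests were chosen with earlier results of these data known.

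Only the 6 libraries compared entered a fit, with filterByExpr, TMM scaling and the quasi-likelihood test of edgeR, adjusted after Benjamini-Hochberg over all genes tested (R 4.3.3, edgeR 4.0.16). Calls needed a log2 fold change of 1 or more in size at an adjusted p under 0.05. The standard error was taken as the size of the log2 fold change over the square root of F. The script was tested on simulated data. The alternatives were DESeq2 1.42.0, other scalings, no filter, all 12 libraries in 1 fit, limma 3.58.1 on log2(FPKM + 1) or log2(FPKM + 0.1), leaving out single libraries, and a block for the replicate number.

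Named with values were members with a symbol, the 3 most translated genes of each class, and the 3 highest and 3 lowest called genes of each comparison in the design. Other members were named after their values were seen. Sequences and positions were not used here, since the tables at hand pair none with these identifiers. P-values measure the spread between animals, from which that of library preparation was not separated.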

Additional observations from a re-analysis of the deposited data

How the results depend on the processing

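Calls between Y4Y and CY stayed within 1.5 times of the reported 12 higher and 10 lower in all 15 alternatives, from 11 to 13 higher and from 9 to 12 lower with 1 library left out. These counts include genes that passed the filter on low counts through 1 group alone, whose calls add no support. From Y6M to Y18M, histone genes called higher numbered 5 by DESeq2, 3 with all 12 libraries in 1 fit and 0 to 5 with 1 library left out (5 without Y18M-1), and those called lower 0 to 1. From Y18M to Y4Y they numbered 1 by DESeq2, 1 with all 12 libraries and 0 to 11 with 1 left out (11 without Y18M-2), and those lower 0 to 1. Genes called higher and lower were 15 to 20 and 1 to 2 from Y6M to Y4Y (2 lower by DESeq2 and 2 without the filter), and 15 to 18 and 1 to 2 from Y6M to CY (2 lower by DESeq2, 0 with all 12 libraries). Same-numbered libraries of Y4Y and CY had deviations from the group means that correlated at 0.0378, 0.0651 and 0.0272, so the numbers do not pair them. With the replicate number as a block, Y4Y to CY gave 12 higher and 11 lower, and Y6M to Y18M gave 1 higher. The block changed no other count by more than 1.5 times.

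The class sums gave these log2 ratios. By library size alone and by sums of FPKM, H3 turned to 0.27 and 0.27 from Y6M to Y18M, to 0.044 and 0.044 from Y18M to Y4Y and to 0.31 and 0.31 from Y6M to Y4Y. From Y6M to Y4Y, H1 moved to 2.96 and 3.21 and H2B to 2.06 and 2.12. From Y6M to CY, H3 moved to 0.79 and 0.79, H2B to 2.08 and 2.13, and H2A to 2.44 by library size alone. H4 moved to 8.23 by FPKM in Y4Y to CY. With 1 library left out, Y4Y to CY ranged from −0.34 to 0.16 for H2A and from −0.11 to 0.23 for H2B, with −0.06 without Y4Y-2 and −0.04 without CY-3. Y6M to Y18M ranged from −0.18 to 0.025 for H3, with 0.025 without Y6M-2 and 0.015 without Y18M-2, and from −5.79 (without Y18M-2) to −1.59 for H4. Y18M to Y4Y ranged from 1.22 to 2.32 (without Y18M-2) for H1 and from −3.70 to 0.42 (without Y18M-2) for H4. Y6M to CY ranged from −0.19 to 0.54 for H1, with −0.06 without Y6M-1. Of the fold changes of named genes, genes that passed the filter through 1 group alone included, 481 kept direction and call, 14 lost the call and 0 reversed. The cause was not tested. Depth limits copies with few counts, of which 11 had at most 10 in every library.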
